A study of Rattus norvegicus with 6 samples.

Results

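The HOX cluster genes of the rat were read in cells grown from amniotic fluid, in libraries from a preeclampsia model and from control pregnancies. Members were all rows of the gene table whose symbol is Hox, a cluster letter from a to d and a paralog number; there were 37 of 22085 genes. The HOXA cluster on chromosome 4 had 10 members, and the HOXB cluster on chromosome 10, the HOXC cluster on chromosome 7 and the HOXD cluster on chromosome 3 had 9 each. Hoxa10 and Hoxb1 were not analysed here.

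Fluid was taken at embryonic day 18.5, and its cells were spun down, grown in serum-containing DMEM/F12 medium and sequenced at passage 4. The control group held 3 libraries from control pregnancies, and the preeclampsia group held 3 from the model of preeclampsia, a condition of raised blood pressure in pregnancy. The labels name the cell type as mesenchymal stem cells; they give no strain, no fetal sex, no way in which the model was made, and no count of animals or fetuses in a library. Each p-value therefore measures the spread between these libraries, which may be technical in part. The libraries held from 48402185 to 59193961 counts. In bulk RNA, fewer cells of a type and less RNA per cell cannot be told apart.

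HOX genes encode homeodomain transcription factors and lie in tight clusters, where the order of the genes along the chromosome matches the order in which they are switched on along the head-to-tail axis and, for the last genes of the HOXA and HOXD clusters, along the limb. Low paralog numbers mark hindbrain and neck, middle numbers the trunk, and high numbers the lumbar to tail region, the distal limb and the urogenital tract. Cultured fibroblasts and stromal cells are known to keep much of the HOX pattern of the place they came from, so the set of HOX genes in a culture is widely used as a positional record. Genes of paralogs 1 to 3 are called anterior below, those of 4 to 8 central and those of 9 to 13 posterior.

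The libraries differed from one another both in which end of the clusters was read and in which clusters were read. Those of 1 group did not share 1 pattern. The DNA just before the start of 4 HOXA genes is shown here for reference: Hoxa2 and Hoxa7 had the smallest p-values of the HOX genes between the groups, and Hoxa9 and Hoxa11 were among the genes that differed most between libraries. Each sequence is the 250 bases before the RefSeq start on the GRCr8 build, 5′ to 3′ on the minus strand, with CG dinucleotides in capitals. The intervals were chr4:82595693-82595942 for Hoxa2, chr4:82648242-82648491 for Hoxa7, chr4:82657049-82657298 for Hoxa9 and chr4:82676802-82677051 for Hoxa11. For Hoxa7 and Hoxa9 the start used lay inside the RefSeq gene span, so these are internal starts.
Hoxa2: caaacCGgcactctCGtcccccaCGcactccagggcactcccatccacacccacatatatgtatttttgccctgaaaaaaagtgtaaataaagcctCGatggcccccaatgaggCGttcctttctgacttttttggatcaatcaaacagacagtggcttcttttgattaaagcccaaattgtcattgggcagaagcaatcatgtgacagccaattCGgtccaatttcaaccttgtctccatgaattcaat
Hoxa7: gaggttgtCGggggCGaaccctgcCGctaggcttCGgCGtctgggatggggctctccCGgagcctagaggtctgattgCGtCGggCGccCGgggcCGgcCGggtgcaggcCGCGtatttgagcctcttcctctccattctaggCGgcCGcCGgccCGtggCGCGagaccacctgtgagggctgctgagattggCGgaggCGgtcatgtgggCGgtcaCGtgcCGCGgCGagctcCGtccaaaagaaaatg
Hoxa9: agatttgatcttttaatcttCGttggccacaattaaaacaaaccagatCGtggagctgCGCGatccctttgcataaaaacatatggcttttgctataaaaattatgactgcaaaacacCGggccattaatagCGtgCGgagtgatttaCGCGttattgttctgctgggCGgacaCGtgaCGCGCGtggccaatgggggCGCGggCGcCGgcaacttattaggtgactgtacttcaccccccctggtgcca
Hoxa11: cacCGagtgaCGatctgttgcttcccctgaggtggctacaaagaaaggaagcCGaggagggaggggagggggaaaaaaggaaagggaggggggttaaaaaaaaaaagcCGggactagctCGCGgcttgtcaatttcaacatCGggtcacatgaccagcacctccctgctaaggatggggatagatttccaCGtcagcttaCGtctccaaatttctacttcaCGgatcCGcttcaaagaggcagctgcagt
The 4 sequences held 6, 28, 18 and 11 CG dinucleotides in that order, so the anterior gene Hoxa2 had the fewest. RefSeq sequences were matched for 18 of the 37 members; their median was 20 CG dinucleotides, against 5 over 33469 rat promoters, and their median GC content was 63.6%, against 51.2%. The letters TGATNNAT, a core that HOX proteins can bind with PBX proteins, were found on either strand in 2 of the 18 (Hoxa2 and Hoxd11) and in 7.96% of all promoters. TTTATG, a core of CDX proteins, was found in 2 (Hoxa9 and Hoxd4) and in 11.4% of all. A match of letters is a description and not a binding site.

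HOX transcripts were present in every library. A HOX gene was called detected in a library at an FPKM (fragments per kilobase of gene model, relative to the library's size) of at least 1. By that measure 29 of the 37 genes were detected in at least 1 library, and 8 in none. From here on, 3 values of a group are those of its libraries 1, 2 and 3 in that order. The controls had 16, 14 and 19 detected HOX genes, and the preeclampsia libraries had 14, 17 and 13. Only Hoxa3, Hoxc6 and Hoxd8 were detected in all 6 libraries. HOX genes together made 176, 212 and 233 CPM (counts relative to the library total, scaled the same way in every library) in the controls and 250, 156 and 86.8 in the preeclampsia group. Preeclampsia library 1 had the highest sum and preeclampsia libraries 3 and 2 the lowest, so the control values lay inside the range of the preeclampsia group.

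**Figure D1:**
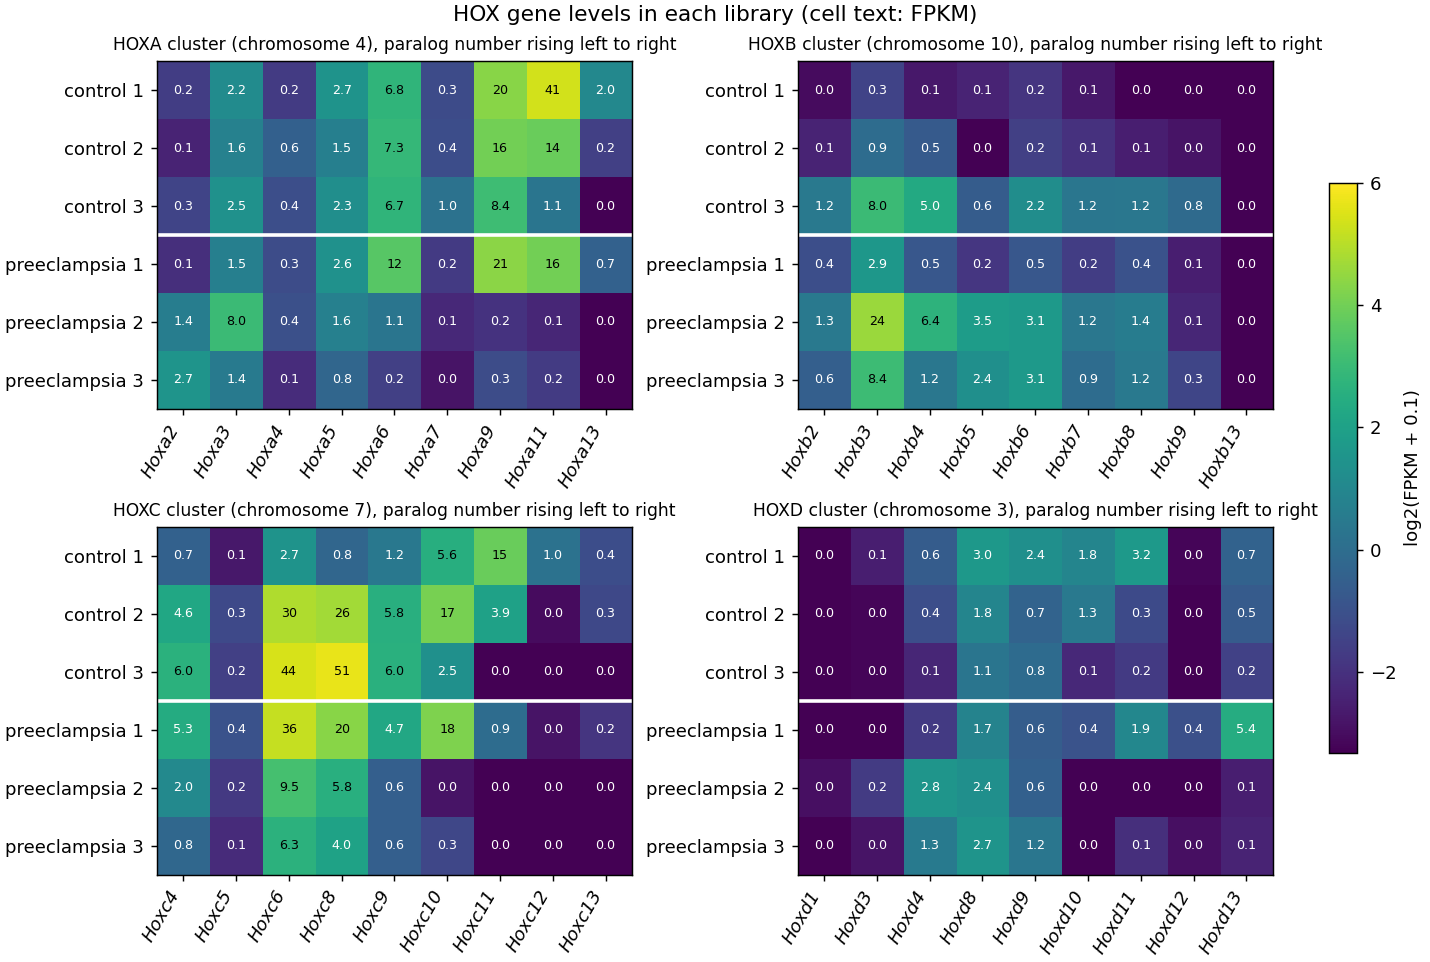
FPKM of HOX genes (columns, by cluster and paralog number) in each library (rows), coloured on the log2(FPKM + 0.1) scale with the FPKM printed in each cell. Control libraries 1 and 2 and preeclampsia library 1 carry high values at the posterior end of HOXA and HOXC, while preeclampsia libraries 2 and 3 and control library 3 carry HOXB genes.

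The balance of paralog classes separated the libraries, and it did so inside both groups. Posterior genes took 75.2%, 47.0% and 13.1% of the HOX counts in the controls, and 48.7%, 1.78% and 5.86% in the preeclampsia group. Preeclampsia library 1 fell between control libraries 1 and 2, and preeclampsia libraries 2 and 3 lay below all 3 controls, with control library 3 the next lowest. The exact (Clopper-Pearson) 95% intervals of these shares ran from 46.1% to 47.9% in control library 2, from 12.5% to 13.8% in control library 3, from 1.52% to 2.07% in preeclampsia library 2 and from 5.17% to 6.61% in preeclampsia library 3, and they cover counting error only. No interval of any class was wider than 3.05 percentage points.

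Anterior genes showed the other side of this balance. They took 5.26%, 5.27% and 17.3% of the HOX counts in the controls, and 5.68%, 56.3% and 50.6% in the preeclampsia group. Preeclampsia libraries 2 and 3 stood far above the other 4, and preeclampsia library 1 lay among the controls. In preeclampsia library 2 Hoxb3 held 2601 and Hoxb2 995 of the 9256 HOX counts. In preeclampsia library 3 they held 739 and 390 of 4199. The anterior share thus rested in large part on these HOXB genes, whose counts or lengths are uncertain, as given below. Central genes took 19.5%, 47.7% and 69.6% in the controls and 45.6%, 41.9% and 43.5% in the preeclampsia group. The controls thus spanned the preeclampsia values. With FPKM in place of counts the posterior shares were 80.7%, 43.6% and 12.9% in the controls and 45.0%, 2.1% and 7.22% in the preeclampsia libraries, in the same order. The anterior shares by FPKM were 3.67%, 3.55% and 8.78% in the controls and 3.42%, 46.7% and 35.3% in the preeclampsia libraries, so preeclampsia libraries 2 and 3 again stood above the rest. On that scale central genes, at 51.2% and 57.5%, and not anterior genes were the largest class in preeclampsia libraries 2 and 3.

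**Figure D2:**
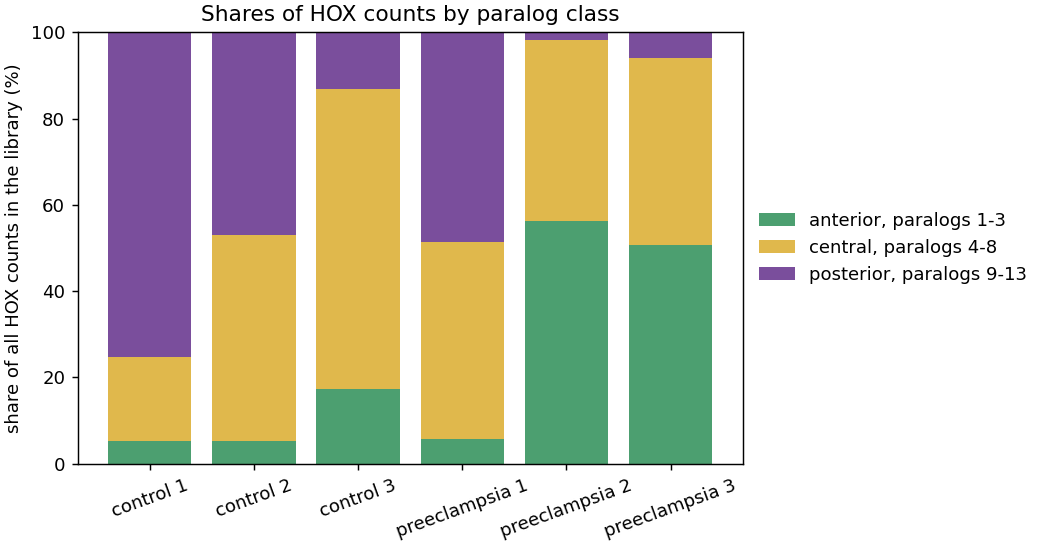
Share of each library's HOX counts (y axis, percent) taken by anterior, central and posterior genes, 1 bar per library. The posterior share runs from 75.2% in control library 1 to 1.78% in preeclampsia library 2, and preeclampsia library 1, at 48.7%, lies beside control library 2.

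Levels by cluster varied as widely. The HOXA genes made 118, 64.4 and 41.9 CPM in the controls and 75.9, 35.3 and 25.04 in the preeclampsia group. The HOXC genes made 38.3, 134 and 139 CPM in the controls and 136, 26.2 and 17.0 in the preeclampsia group. For both clusters preeclampsia libraries 2 and 3 were the lowest of the 6, and preeclampsia library 1 lay within the control range. The HOXB genes made 1.27, 4.52 and 47.3 CPM in the controls, and 12.8, 81.0 and 34.4 in the preeclampsia group. HOXB transcripts were thus nearly missing from control libraries 1 and 2, and highest in preeclampsia library 2. The HOXD genes made 18.9, 9.35 and 4.71 CPM in the controls and 25.4, 13.8 and 10.3 in the preeclampsia group, and the groups overlapped.

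The last gene detected in each cluster differed between libraries too, and each cluster had its own order. In HOXA it was paralog 13 in control library 1, paralog 11 in control libraries 2 and 3 and preeclampsia library 1, paralog 6 in preeclampsia library 2 and paralog 3 in preeclampsia library 3. In HOXC it was paralog 12, 11 and 10 in the controls, and 10, 8 and 8 in the preeclampsia group. In HOXD it was paralog 11, 10 and 8 in the controls, and 13, 8 and 9 in the preeclampsia group. In HOXB no gene was detected in control libraries 1 and 2, and the last was paralog 8 in control library 3, paralog 3 in preeclampsia library 1 and paralog 8 in preeclampsia libraries 2 and 3.

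Between the groups no HOX gene was called. Of the 37 genes 33 had enough counts for the test, and edgeR's quasi-likelihood test with Benjamini-Hochberg adjustment over 15776 genes called 0 of the 33 at an adjusted p under 0.05, the background being 0% of all genes tested. The smallest adjusted p of a HOX gene was 0.473, and the smallest of any gene was 0.228. At an unadjusted p under 0.05 there were 2 of 33, against a background of 9.19%. These were Hoxa2, higher in preeclampsia as 4.13% of all genes were at that level, and Hoxa7, lower as 5.06% were. DESeq2 called 0 of the 33 HOX genes to which it gave an adjusted p, against 1.71% of all such genes. It had 4 of 34 with an unadjusted p under 0.05 (Hoxa2, Hoxa7, Hoxb5 and Hoxd4), against 8.35%, and gave Hoxd13 no p. The edgeR count of 2 rested on single libraries: it was 13 without preeclampsia library 1 (12.3% of all genes in that fit), 7 without control library 3 (9.56%), 2 without control library 1 (6.37%), 1 without control library 2 (6.78%), 1 without preeclampsia library 3 (6.62%) and 0 without preeclampsia library 2 (6.09%). The adjusted count stayed at 0 of 33 in each of these fits, in which 0.0123% of all genes were called without preeclampsia library 1, 0.00615% without control library 3 and 0% in the other 4.

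Fold changes were large all the same, and so were their errors. The log2 fold change, preeclampsia over control, was at least 1 in size for 17 of 33 HOX genes, against 10.6% of all genes tested. The median standard error of that value was 1.25 for the HOX genes and 0.26 over all genes; it was 0.43 over genes with a mean level in the range of the HOX genes. A standard error of at least 1 was met by 23 of 33 HOX genes, against 8.38% of all genes and 9.86% of genes in the same range of level. The gap between the highest and the lowest library was at least 4 on the log2 scale of CPM for 22 of 33 HOX genes, against 6.47% of all genes and 10.1% in the same range. The median gap was 5.33 for the HOX genes and 0.89 over all genes.

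By class, all 6 tested anterior genes had a fold change above 0, with a median log2 value of 1.17. Of the 15 central genes 8 were above 0 and 7 below, with a median of 0.21. Of the 12 tested posterior genes 11 were below 0 and 1, Hoxd13, above, with a median of -1.12. These counts moved with single libraries: without preeclampsia library 1 all 12 posterior genes were below 0 (48.4% of all genes were above 0 in that fit), and without control library 1 there were 4 posterior genes above 0 (Hoxa13, Hoxd9, Hoxd11 and Hoxd13; 51.9% of all genes). Without control library 2 or 3, or preeclampsia library 2 or 3, 2 posterior genes were above 0. Of the 6 anterior genes 3 were above 0 without preeclampsia library 2 (50.9% of all genes), and at least 5 in the other such fits. In the fit to all libraries 51.7% of all genes tested were above 0 and the median was 0.01. By cluster, 3 of 10 tested HOXA genes, 7 of 8 HOXB genes, 1 of 8 HOXC genes and 4 of 7 HOXD genes were above 0. With 1 library left out these counts ran from 1 (without preeclampsia library 2) to 3 for HOXA and from 6 to 8 for HOXB. They ran from 0 (without control library 1 or preeclampsia library 1) to 3 (without control library 3) for HOXC, and from 3 to 6 (without control library 1) for HOXD. These are counts of fitted values, none of which passed the test.

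**Figure D3:**
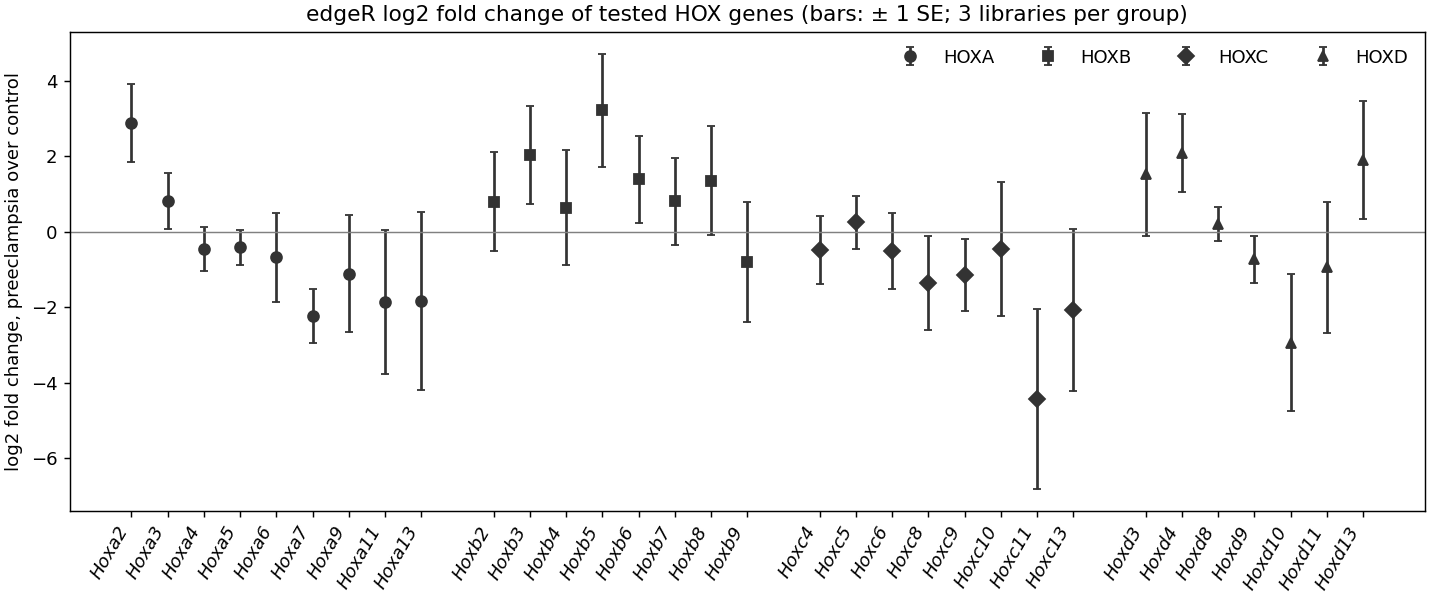
Log2 fold change (y axis, preeclampsia over control, edgeR) of tested HOX genes with bars of 1 standard error, ordered by cluster and paralog number, n = 3 libraries per group. Anterior genes and most of HOXB lie above 0 and posterior genes except Hoxd13 below it, with standard errors from 0.44 to 2.38.

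In HOXA, Hoxa2 near the front of the cluster was highest in preeclampsia libraries 2 and 3. Gene positions from here on are those of the gene table, whose build is not the GRCr8 of the promoter sequences, so the coordinates cannot be set against each other. Hoxa2 (chr4:81262668-81266970), which patterns the hindbrain and the second pharyngeal arch, stood at 0.22, 0.09 and 0.28 FPKM in the controls and at 0.14, 1.45 and 2.72 FPKM in the preeclampsia group. Preeclampsia libraries 2 and 3 were above every control, and preeclampsia library 1 lay within the control range, so the groups overlapped. For Hoxa2 the fitted log2 fold change was 2.89 (SE 1.03, edgeR adjusted p = 0.481). Hoxa3, which acts in the pharyngeal organs, was at 2.18, 1.60 and 2.55 FPKM in the controls and 1.53, 8.03 and 1.35 in the preeclampsia group, with preeclampsia library 2 alone standing high.

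Hoxa6 and Hoxa7, trunk genes of the middle of the cluster, were lower in preeclampsia libraries 2 and 3. Hoxa6 was at 6.83, 7.29 and 6.73 FPKM in the controls and at 11.9, 1.14 and 0.24 in the preeclampsia group. The controls were close together, with preeclampsia library 1 above them and preeclampsia libraries 2 and 3 below. Its log2 fold change was -0.67 (SE 1.17, edgeR adjusted p = 0.905), and it was -3.25 without preeclampsia library 1, -0.23 without preeclampsia library 2 and -0.12 without preeclampsia library 3. Hoxa7 (chr4:81315730-81317629) was at 0.34, 0.36 and 1.03 FPKM in the controls and at 0.20, 0.11 and 0.04 in the preeclampsia group. It was the only tested HOX gene whose groups did not overlap, 1 of 33 against 14.5% of all genes, and it lay below 1 FPKM in 5 of the 6 libraries. For Hoxa7 the fitted log2 fold change was -2.24 (SE 0.72, edgeR adjusted p = 0.473).

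Within HOXA, Hoxa9 and Hoxa11 had wide gaps between libraries. Hoxa9 (chr4:81323235-81329344), which is active in the lower trunk, limb and blood progenitors, was at 19.99, 16.3 and 8.42 FPKM in the controls and at 20.9, 0.16 and 0.35 in the preeclampsia group. Preeclampsia library 1 was the highest of all 6, and preeclampsia libraries 2 and 3 were near 0. The highest library had 120 times the CPM of the lowest, and the log2 fold change was -1.11 (SE 1.56, edgeR adjusted p = 0.879). It was -5.77 without preeclampsia library 1, and -0.53 and -0.55 without preeclampsia library 2 or 3.

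Hoxa11 (chr4:81342527-81346189), which patterns the forearm and lower leg, the kidney and the uterus, was at 40.7, 14.5 and 1.13 FPKM in the controls and 16.04, 0.10 and 0.21 in the preeclampsia group. Control library 1 was highest, control library 2 and preeclampsia library 1 were alike, control library 3 was low, and preeclampsia libraries 2 and 3 were lower still. Its CPM spanned 373-fold, and the log2 fold change was -1.86 (SE 1.91, edgeR adjusted p = 0.836). It was -6.87 without preeclampsia library 1 and -0.53 without control library 1. The antisense transcript of this locus, Hoxa11-as, followed the same order among the higher libraries, at 10.5, 3.30 and 0.23 FPKM in the controls and 4.10, 0 and 0 in the preeclampsia group. In the table the antisense gene lies next to Hoxa11 and does not overlap it. Hoxa11-as was the only one of 6 non-coding genes of the clusters in the table with enough counts for the test. Hoxa13, the digit and genital tubercle gene at the end of the cluster, was at 1.96, 0.24 and 0 FPKM in the controls and 0.65, 0 and 0 in the preeclampsia group. It was detected in control library 1 alone.

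**Figure D4:**
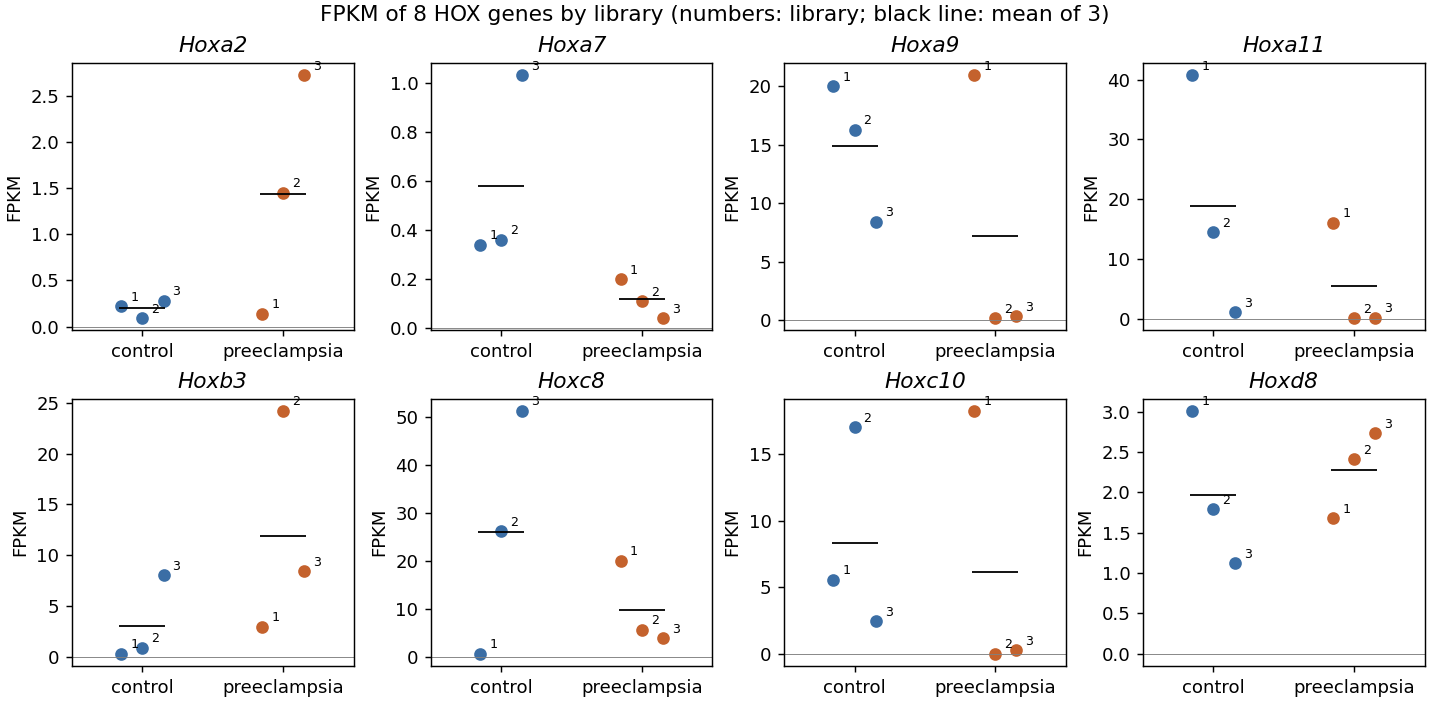
FPKM (y axis, linear, a scale of its own per gene) of 8 HOX genes in each library, numbered within its group, with a black line at the mean of 3. Hoxa9, Hoxa11 and Hoxc10 are near 0 in preeclampsia libraries 2 and 3 and not in preeclampsia library 1, and Hoxb3 is highest in preeclampsia library 2 at 24.2 FPKM.

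HOXB genes marked another split of the libraries. Hoxb3 (chr10:81258739-81314134), a hindbrain and neck gene, was at 0.27, 0.89 and 8 FPKM in the controls and at 2.92, 24.2 and 8.38 in the preeclampsia group. Control libraries 1 and 2 were the lowest, and control library 3 lay inside the preeclampsia range. The log2 fold change was 2.04 (SE 1.30, edgeR adjusted p = 0.712), and it was 4.37 without control library 3 and 0.94 without preeclampsia library 2. Hoxb4, its neighbour, known for its part in blood stem cells, was at 0.05, 0.53 and 4.96 FPKM in the controls and 0.48, 6.37 and 1.21 in the preeclampsia group. Control library 3 and preeclampsia library 2 were its high libraries, 1 from each group. For Hoxb4 the fitted log2 fold change was 0.64 (SE 1.52, edgeR adjusted p = 0.929), and it was -1.06 without preeclampsia library 2.

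Hoxb6 and Hoxb8, trunk genes of the cluster, split the libraries as Hoxb3 did and not quite as Hoxb4 did. Hoxb6 was at 0.17, 0.24 and 2.25 FPKM in the controls and 0.48, 3.08 and 3.13 in the preeclampsia group, with a log2 fold change of 1.39 (SE 1.15, edgeR adjusted p = 0.787). Hoxb8 was at 0, 0.07 and 1.19 FPKM in the controls and 0.41, 1.42 and 1.25 in the preeclampsia group, with a log2 fold change of 1.35 (SE 1.45, edgeR adjusted p = 0.842). Without control library 3 these values were 3.40 and 4.62. In both genes control library 3 and preeclampsia libraries 2 and 3 were high and the other 3 libraries low. Hoxb5 reached 3.48 and 2.40 FPKM in preeclampsia libraries 2 and 3 and was at most 0.55 elsewhere. Hoxb9 was detected in no library, and Hoxb13 was listed at 0 in all 6. Without control library 3, 6 HOXB genes (Hoxb2, Hoxb3, Hoxb5, Hoxb6, Hoxb7 and Hoxb8) were higher in preeclampsia at an unadjusted p under 0.05, against 5.07% of all genes higher at that level in that fit, and none was called after adjustment. In the edgeR fit to all libraries none of them was at that level. Control library 3 had the highest HOXB level of the controls, so leaving it out widens the gap between the groups by itself. Hoxb3 overlaps Hoxb5 and Hoxb6, so these are not all separate counts.

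HOXC held the highest central genes. Hoxc6 (chr7:134138017-134148899), a gene of the thoracic trunk and forelimb level, was at 2.66, 29.7 and 43.5 FPKM in the controls and at 36.3, 9.52 and 6.32 in the preeclampsia group. Control library 1 was the lowest and control library 3 the highest, so the controls enclosed the preeclampsia group. The log2 fold change was -0.52 (SE 1.01, edgeR adjusted p = 0.915), and it was 0.12 without control library 3. Hoxc8 (chr7:134127937-134130503), next to it and also a trunk gene, was at 0.75, 26.3 and 51.3 FPKM in the controls and 20.1, 5.76 and 4.01 in the preeclampsia group. It spanned 66.4-fold in CPM, with control library 1 again the lowest, and its log2 fold change was -1.36 (SE 1.25, edgeR adjusted p = 0.813). It was -0.42 without control library 3 and -2.34 without preeclampsia library 1.

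Further back in HOXC the order of the libraries changed. Hoxc10 (chr7:134103741-134108966), a gene of the lumbar level and hindlimb, was at 5.58, 17.0 and 2.47 FPKM in the controls and 18.2, 0.04 and 0.30 in the preeclampsia group. Preeclampsia library 1 and control library 2 were high, and preeclampsia libraries 2 and 3 were near 0. It had the widest span of the HOX genes that were above 0 in all 6 libraries, 413-fold in CPM. Its log2 fold change was -0.46 (SE 1.78, edgeR adjusted p = 0.958), and it turned to 0.58 without control library 2.

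The last genes of HOXC were read in fewer libraries. Hoxc11 was at 14.5, 3.94 and 0 FPKM in the controls and 0.87, 0 and 0 in the preeclampsia group. Hoxc12 was at 1.04, 0.02 and 0 FPKM in the controls and 0.04, 0 and 0 in the preeclampsia group. Both were highest in control library 1 and at 0 in control library 3 and preeclampsia libraries 2 and 3. Hoxc11 had the lowest log2 fold change of the HOX genes, -4.43 (SE 2.38, edgeR adjusted p = 0.650), and Hoxc12 had too few counts for the test.

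HOXD was low throughout, with 1 even gene and several that were read in 1 or a few libraries. Hoxd8 (chr3:59607864-59610358), a trunk gene, was at 3.01, 1.79 and 1.12 FPKM in the controls and at 1.68, 2.41 and 2.73 in the preeclampsia group. It spanned 2.68-fold in CPM, the least of the HOX genes above 0 in all libraries. For Hoxd8 the fitted log2 fold change was 0.21 (SE 0.44, edgeR adjusted p = 0.920), and it was -0.08 without control library 3. Hoxd9 was at 2.39, 0.69 and 0.85 FPKM in the controls and 0.58, 0.63 and 1.17 in the preeclampsia group, with control library 1 alone standing out. Its log2 fold change was -0.72 (SE 0.63, edgeR adjusted p = 0.798), and it was 0.10 without control library 1.

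Hoxd13 (chr3:59570647-59573963), the digit and genital gene at the end of HOXD, had a fold change above 0 that rested on 1 library. It was at 0.66, 0.54 and 0.25 FPKM in the controls and at 5.43, 0.07 and 0.09 in the preeclampsia group. Preeclampsia library 1 alone was high, and the other preeclampsia libraries were the lowest of the 6. For Hoxd13 the fitted log2 fold change was 1.9 (SE 1.57, edgeR adjusted p = 0.788) and -2.48 without preeclampsia library 1. Hoxd4, a central gene, was at 0.56, 0.37 and 0.10 FPKM in the controls and 0.20, 2.83 and 1.32 in the preeclampsia group, so preeclampsia libraries 2 and 3 were again the high ones.

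Several genes shared an order of libraries. Preeclampsia libraries 2 and 3 were the lowest pair of the 6 in CPM for 9 of 33 HOX genes (Hoxa6, Hoxa7, Hoxa9, Hoxa11, Hoxc9, Hoxc10, Hoxd10, Hoxd11 and Hoxd13), against 14.9% of all genes tested. They were the highest pair for 7 of 33, among them Hoxa2, Hoxb3, Hoxb5, Hoxb6, Hoxb8 and Hoxd4, against 10.3%. Control libraries 1 and 2 were the lowest pair for another 7 that overlap with these (Hoxb2, Hoxb3, Hoxb5, Hoxb6, Hoxb7, Hoxb8 and Hoxb9), against 10.9%. These orders were looked for after the values had been seen, and they are descriptions of these libraries. Without preeclampsia library 1, 10 of 33 HOX genes were lower in preeclampsia at an unadjusted p under 0.05, against 6.14% of all genes in that fit, and 3 were higher, against 6.19%. In that fit the log2 fold changes were -5.77 for Hoxa9, -6.87 for Hoxa11 and -5.56 for Hoxc10, and again no HOX gene was called. Preeclampsia library 1 was the highest of its group for Hoxa9, Hoxa11 and Hoxc10, so leaving it out lowers their fold changes by itself.

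Across the 33 tested HOX genes the log2 CPM of preeclampsia libraries 2 and 3 correlated at r = 0.91, and those of control library 2 and preeclampsia library 1 at r = 0.87. Control library 1 correlated at r = 0.71 with control library 2, at r = -0.06 with control library 3 and at r = -0.36 with preeclampsia library 2. Control library 3 correlated at r = 0.70 with preeclampsia library 3. Over all genes tested the same pairs of libraries lay between r = 0.93 and r = 0.96. All genes span a wider range of levels than the HOX genes, which alone can raise r. Genes in the same range of level were not correlated. These correlations run over genes that lie in 4 clusters and in part share reads, so the genes are not independent points.

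Markers of other cell types moved between the libraries too. The summed FPKM of 8 macrophage and blood markers was 129, 99.4 and 19.9 in the controls and 22.4, 321 and 158 in the preeclampsia group, so preeclampsia libraries 2 and 3, where anterior HOX genes took their largest shares, were also the highest there. The sum of 8 genes of the G2 and M phases of the cell cycle was 131, 180 and 71.7 in the controls and 349, 72.3 and 74.9 in the preeclampsia group. The sum of 9 mesenchymal markers was 6978, 7528 and 6331 in the controls and 7445, 9793 and 8229 in the preeclampsia group. The sum was thus high in every library, though a few abundant genes can carry it. The sum of 6 epithelial markers was 4.11, 55.9 and 12.8 in the controls and 0.45, 1.56 and 1.52 in the preeclampsia group, so every preeclampsia library was below every control there. Only 2 of these 6 had enough counts for the test, so the sum is not a level of each of the 6. The sum of 5 mesothelial markers was 3.15, 14.9 and 10.7 in the controls and 19.1, 17.7 and 31.95 in the preeclampsia group, so every preeclampsia library was above every control there. Taken singly, 14.5% of all genes tested had groups that did not overlap. The sum of 6 nephron progenitor markers was 52.99, 16.7 and 16.3 in the controls and 20.3, 14.7 and 6.53 in the preeclampsia group, highest in control library 1, which also had the highest posterior HOX share. The sum of 5 neural markers was 56.2, 162 and 159 in the controls and 94.3, 136 and 186 in the preeclampsia group; of these, the neural crest gene Sox10 was listed at 0 in all 6 libraries. The sum of 5 endothelial markers was at most 3.74 in any library. Of the neural markers 3 of 5 were tested, and of the endothelial markers 3 of 5. No marker of any list was called by edgeR. At an unadjusted p under 0.05 were 2 of 9 mesenchymal, 2 of 2 tested epithelial and 1 of 5 mesothelial markers, against 9.19% of all genes. No marker of the other lists was at that level. The part of these markers in the HOX differences was not tested.

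Genes that work with or on the HOX clusters had smaller standard errors than the HOX genes. All 11 genes of the TALE homeodomain cofactors (the Meis, Pbx, Pknox and Tgif families, partners of HOX proteins on DNA) were tested, and 0 were called by edgeR, with 1, Meis1, at an unadjusted p under 0.05, against 9.19% of all genes. Meis1 was at 34.5, 36.4 and 40.2 FPKM in the controls and 28.9, 23.8 and 31.9 in the preeclampsia group, with a log2 fold change of -0.37 (SE 0.13, edgeR adjusted p = 0.478). Every preeclampsia library was below every control for this gene, and 14.5% of all genes had groups that did not overlap. Of 28 Polycomb group genes, which keep HOX genes silent, 0 were called. Phc1 was higher at an unadjusted p under 0.05, as 4.13% of all genes were, and Ezh1 lower, as 5.06% were. Of 16 MLL/COMPASS and H3K27 demethylase genes, which keep HOX genes active, 0 were called. There 1 of the 16, Kmt2b, was higher at an unadjusted p under 0.05, against 4.13% of all genes. The most abundant genes of these lists were Pbx2 and Pbx3 beside Meis1, Rbbp7, Rbbp4 and Cbx6, and Mllt3, Mllt1 and Ash2l; Rbbp7, a histone-binding subunit, stood at 245 ± 17.0 FPKM (SD, n = 3) in the controls and 290 ± 49.5 (SD, n = 3) in preeclampsia. The median standard error in the 3 lists was 0.25, 0.18 and 0.18, against 0.26 over all genes. It was larger in the lists described next. There it was 0.57 for retinoic acid genes, 0.42 for axial patterning genes and 0.93 for other genes of limb and body-wall position.

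Retinoic acid switches on anterior HOX genes in the embryo. Of the 16 pathway genes that the table lists, 13 were tested, 0 were called by edgeR, and 3, among them Crabp1 and Rarg, were higher in preeclampsia at an unadjusted p under 0.05, against 4.13% of all genes. Crabp1, which binds retinoic acid in the cytoplasm, was at 1.00, 0.82 and 0.48 FPKM in the controls and at 7.45, 8.15 and 2.19 in the preeclampsia group. All preeclampsia libraries were above all controls, preeclampsia library 1 included. Its log2 fold change was 2.96 (SE 0.57, edgeR adjusted p = 0.374), and DESeq2 called it with an adjusted p of 1.2e-05. Of 11 axial patterning genes (the Cdx family, Gdf11 and others) 0 were called by edgeR and 0 had an unadjusted p under 0.05. The most abundant of them were Wnt5a, Tgfbr1 and Gdf11, and Gdf11, a ligand that helps switch on posterior HOX genes, stood at 15.97 ± 7.18 FPKM (SD, n = 3) in the controls and 11.8 ± 1.34 (SD, n = 3) in preeclampsia.

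Other transcription factor genes that mark limb and body-wall position were 26 in the table, of which 21 were tested and 0 called by edgeR. Hand1 and Hand2, of lateral mesoderm, limb bud and heart, were lower in preeclampsia at an unadjusted p under 0.05. That is 2 of the 21, against 5.06% of all genes. Hand2 was at 50.3, 48.5 and 15.3 FPKM in the controls and 15.3, 4.14 and 2.56 in the preeclampsia group, with a log2 fold change of -2.39 (SE 0.78, edgeR adjusted p = 0.473, DESeq2 adjusted p = 0.0387). Control library 3 and preeclampsia library 1 met at the same value. The most abundant genes of this list were Prrx1, Prrx2 and Msx2, and Prrx1, a limb mesenchyme factor, stood at 452 ± 80.8 FPKM (SD, n = 3) in the controls and 557 ± 137 (SD, n = 3) in preeclampsia. Hand1 had a log2 fold change of -4.98 (SE 1.09, edgeR adjusted p = 0.387, DESeq2 adjusted p = 8.2e-05).

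A pair of hindlimb genes, named after their values were seen, were set beside the posterior HOX genes. Pitx1 was at 4.50, 2.83 and 4.78 FPKM in the controls and 4.80, 0.03 and 0.02 in the preeclampsia group. Tbx4 was at 9.41, 1.14 and 0.05 FPKM in the controls and 3.00, 0 and 0.12 in the preeclampsia group. Both were near or at 0 in preeclampsia libraries 2 and 3 and well above it in preeclampsia library 1, as Hoxa9, Hoxa11 and Hoxc10 were. Neither was called (edgeR adjusted p = 0.865 and 0.858). The order was not particular to this pair. Tbx5, Lmx1b and Alx4 of the same list were at 3.02, 7.29 and 11.4 FPKM in preeclampsia library 1. They were at most 0.33 in preeclampsia libraries 2 and 3. Tbx15, at 7.82, 8.33 and 8.55 FPKM in the preeclampsia group, and Isl1, at 0.08, 0 and 0.10, did not share it. Of 23 genes that flank the HOX clusters, 20 were tested and 0 called. Higher in preeclampsia at an unadjusted p under 0.05 were 2 of the 20, Cbx1 beside HOXB and Nfe2 beside HOXC, against 4.13% of all genes. Nfe2 was near 0 throughout, at 0.02, 0.03 and 0.02 FPKM in the controls and 0.06, 0.13 and 0.15 in the preeclampsia group. The most abundant of these neighbours were Hnrnpa3, Atp5mc2 and Copz1, and the median standard error over the list was 0.20.

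The order of levels between HOX genes is less certain than that between libraries for 1 gene. The length implied by count and FPKM was longer than the whole gene for 1 of 19 HOX genes with a mean of at least 1 FPKM (Hoxa5), against 6.32% of the 11907 genes of the table at that level. It was so for 9 of the 17 HOX genes with counts but a lower mean, where the rounding of FPKM to 2 decimals makes the implied length less exact. Among these were Hoxb2, at an implied 13.3 kb for a span of 2.30 kb, and Hoxa7, at 5.07 kb for 1.9 kb. These gaps are larger than that rounding gives. For genes with such an implied length FPKM cannot be read as a level per transcript length. In control library 3, for example, 850 counts of Hoxb2 were deposited as 1.25 FPKM and 59 counts of Hoxb8 as 1.19 FPKM. Of the 37 HOX genes 12 overlap another gene of the table, all 12 on the same strand and 9 on the other strand as well. They include Hoxa3 with Hoxa4, Hoxa5 and Hoxa6, Hoxb3 with Hoxb4, Hoxb5 and Hoxb6, and Hoxc4 with Hoxc5 and Hoxc6, so the split of counts among these neighbours is uncertain. Hoxa2, Hoxa7, Hoxa9, Hoxa11, Hoxc8, Hoxc10, Hoxd8 and Hoxd13 overlap no other gene of the table.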

How the data were processed

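RNA from 6 cultures was measured, 3 control and 3 preeclampsia, grouped by the labels. Per the file headers, the authors deposited, for every gene and library, a count (whole numbers) and an FPKM in 1 table. Tools named in the submitters' processing notes are StringTie 2.1.6, HISAT2 2.2.1, cutadapt 1.9 and FastQC, without their roles. The build, the handling of strand and of the unique molecular identifiers on the adapters, and the counting tool are not given in the sources used here; coordinates are those of the table, whose sequence names are those of mRatBN7.2. Among deposited counts from 1 to 15, multiples of 4 made 35.1% to 38.0% in a library, where an even spread gives 20%, so counts may not be single reads, and the binomial intervals of shares may be too narrow.

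The test was edgeR's quasi-likelihood test (edgeR 4.0.16, R 4.3.3) on the deposited counts, after filterByExpr and TMM scaling, with a group term alone; p-values were adjusted by Benjamini-Hochberg over 15776 genes. The biological coefficient of variation over all genes was 0.418, so for genes with many counts spread between libraries and not depth limits the precision. Several HOX genes had few counts, such as Hoxb8 with 0 and 4 in control libraries 1 and 2, and there depth limits it too. Levels were read as deposited FPKM, and log2 CPM used a prior count of 2. Alternatives were DESeq2 1.42.0, limma 3.58.1 on log2(FPKM + 1) and log2(FPKM + 0.1) (mean FPKM 1 or more), other scalings and detection limits, no filter, leaving out each library in turn, and a block on the replicate number. Scripts were tested on simulated data. Named by rule were the 3 HOX genes of highest mean FPKM in each cluster, those with an unadjusted p under 0.05, those with a mean of at least 5 FPKM and groups that do not overlap, the highest paralog detected in each cluster, and the 5 of largest range over the libraries with a mean of at least 5 FPKM. From each gene list the rule named the 3 of highest mean FPKM and those with an unadjusted p under 0.05. Other genes were named after their values were seen. The members, gene lists and rule were chosen with earlier results of these data known. Promoter sequences came from RefSeq (GRCr8). Some genes are not reported here by name or in the figures, though counts over lists include them.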

Additional observations from a re-analysis of the deposited data

How the results depend on the processing

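No HOX gene was called under any alternative that was run. DESeq2 called 302 genes over the whole table, against 0 by edgeR, and leaving out 1 library gave 0 to 2. HOX genes at an unadjusted p under 0.05 numbered 2 by edgeR, 4 by DESeq2, 0 by limma with either pseudocount, and 0 to 13 with 1 library left out. The limma fits held only the 19 HOX genes with a mean of at least 1 FPKM. Hoxa2, Hoxa7 and Hoxd4 lay below that mean, so limma did not test them and its 0 cannot be set against the other counts. HOX genes detected in at least 1 library numbered 29 at 1 FPKM, 31 at 0.5, 13 at 5, and 35 at 1 CPM, a limit added after seeing the data. Of 200 alternative fold changes of 16 named HOX genes, 10 reversed, in 7 genes. With 1 library left out, the log2 fold change ran from -10.15 to 0.81 for Hoxa13 (the lowest value set by libraries at 0), from -1.06 to 3.26 for Hoxb4, from -1.60 to 0.12 for Hoxc6, from -5.56 to 0.58 for Hoxc10, from -0.079 to 0.70 for Hoxd8, from -1.12 to 0.10 for Hoxd9 and from -2.48 to 2.47 for Hoxd13. With the replicate number as a block Hoxd13 was at -0.53, 2 HOX genes (Hoxc11 and Hoxd10) had an unadjusted p under 0.05 (7.58% of all genes in that fit), and 0 were called; same-numbered libraries deviated together by r = 0.05, 0.04 and 0.01 only, so the numbers were not taken as pairs. The cause of each reversal was not tested beyond the library left out. With 3 libraries against 3, an exact permutation test cannot go below 0.1.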
